A study of Mus musculus with 4 samples.

Results

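DNA replication and S-phase genes were examined in T cells cultured with or without fever-range heat and with or without a Smad4 knockout (KO) label. The 46 genes were chosen by name, for their roles in origin licensing, the replicative helicase, the polymerases, the sliding clamp, nucleotide supply and the G1/S transition. All 46 were present among the 19555 rows measured in every library, and all 46 passed the minimum mean of 1 RPKM (reads scaled to exon length and library size). The cells were naive CD4+ T cells of C57BL/6 mice, taken from lymph nodes and spleen and cultured for 3 days with IL-6 and TGF-β1, cytokines that drive T helper 17 (Th17) differentiation. There were 4 groups of 1 library each, labelled Smad4 KO at 39.5 °C, Smad4 KO at 37 °C, wild type (WT) at 39.5 °C and WT at 37 °C. The sources used here do not give the deleted exons, the driver of any Cre or the number of mice behind a library. Smad4, the common SMAD partner in TGF-β signalling, was itself higher with the KO label in the additive limma fit (log2 0.54 ± 0.12 SE, adjusted p = 0.0454), at 21.3 and 20.7 RPKM at 39.5 and 37 °C in the libraries labelled Smad4 KO, against 14.2 and 14.05 RPKM in WT. A level summed over a whole gene would not reveal a partial deletion, so the libraries are called KO-labelled, and every genotype direction is that of the label.

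Before S phase, the origin recognition complex, Cdc6 and Cdt1 load the ring of MCM subunits onto DNA in an inactive state. The ring becomes a working helicase when Cdc45 and the GINS complex join it. DNA polymerase α with primase starts each strand, polymerases ε and δ extend it on the PCNA clamp, which the RFC complex loads, and RPA coats the exposed single strands. E2F transcription factors, released from RB proteins when cyclin E and cyclin D kinases act, switch on most of these genes together at the G1/S boundary. Activated T cells divide fast, so they carry these transcripts at high levels.

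Promoters were read to see whether the shared E2F element stands in the genes that are described together. RefSeq promoter windows on GRCm38.p6, from 250 bases before to 50 bases after each start, were available for 39 of the 46 genes. None was available for Gins1, Gins2, Mcm4, Ccne2, Pole, Rfc2 and Prim2. The letters searched, on both strands, were TTTCGCGC, TTTGGCGC, TTTCCCGC and TTTGGGCGC for E2F and CCAAT for the box bound by NF-Y. An E2F match stood in a window of 14 of the 39 genes (35.9%). This held for 344 of 7203 tested genes with a window (4.78%) and 604 of all 27025 genes with one (2.23%). A gene with several windows, such as E2f2, Mcm7 or Uhrf1, counts once if any of them has a match. The 14 were Cdc6, Cdt1, E2f2, Gins3, Lig1, Mcm3, Mcm5, Mcm6, Mcm7, Orc1, Pola1, Pold1, Rfc3 and Uhrf1. CCAAT, a much shorter word, was in a window of 25 of the 39 genes (64.1%), against 43.1% of tested genes. A match is a description of these letters, not a bound site, and the lack of a match does not show that an E2F site is absent. The stretches of the 4 MCM genes with an E2F match follow, 5′ to 3′ on the strand of the gene, with their matches in capitals; in Mcm5 and in the upstream match of Mcm6, a match on each strand overlaps into 1 run. Rrm2, a gene with a large temperature difference and no E2F match in its window, is shown with CCAAT in capitals.
Mcm3, chr1:20820263-20820318, minus strand: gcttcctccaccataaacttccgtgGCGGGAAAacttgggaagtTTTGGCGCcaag
Mcm5, chr8:75109331-75109392, plus strand: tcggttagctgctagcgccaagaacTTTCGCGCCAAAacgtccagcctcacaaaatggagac
Mcm6, chr1:128359720-128359840, minus strand: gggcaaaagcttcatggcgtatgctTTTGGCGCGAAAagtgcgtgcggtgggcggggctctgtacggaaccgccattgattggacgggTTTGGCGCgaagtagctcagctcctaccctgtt
Mcm7, chr5:138171835-138172073, minus strand: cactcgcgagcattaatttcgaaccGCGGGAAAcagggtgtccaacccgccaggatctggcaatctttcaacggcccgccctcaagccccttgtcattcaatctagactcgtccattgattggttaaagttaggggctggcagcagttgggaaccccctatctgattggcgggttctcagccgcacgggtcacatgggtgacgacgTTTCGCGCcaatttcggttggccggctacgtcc
Rrm2, chr12:24708179-24708233, plus strand: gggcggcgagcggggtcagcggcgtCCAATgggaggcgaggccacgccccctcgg

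Whole reads recovered from the deposited values summed to between 18047831 and 18473822 per library. The replication genes held between 89 reads (Ccne2, KO-labelled at 37 °C) and 15463 reads (Mcm3, WT at 37 °C) in a library. All 7 T cell markers were well detected, with summed levels of 1347 and 1317 RPKM at 39.5 and 37 °C in KO-labelled cells and 1289.8 and 1175 RPKM in WT. Of 21 markers of B, CD8 T, NK, myeloid and erythroid cells, 8 had a row, and their summed level was 12.1 and 8.55 RPKM at 39.5 and 37 °C in KO-labelled cells and 10.3 and 6.63 RPKM in WT. Most of that sum was Cd68 and Cd8b1, while the B cell marker Cd79a, the NK cell marker Eomes and the myeloid marker Csf1r stayed under 0.5 RPKM in every library. Cd68, a macrophage gene, had 8.17 and 3.61 RPKM at 39.5 and 37 °C in KO-labelled cells, against 4.57 and 1.703 RPKM in WT, higher with heat and with the label. Lyz2, another myeloid gene, ran the other way with the label, at 0.0413 and 0.345 RPKM at 39.5 and 37 °C in KO-labelled cells, against 1.22 and 1.001 RPKM in WT and from 1 to 31 reads in a library. The 6 Th17 genes summed to 417 and 266 RPKM at 39.5 and 37 °C in KO-labelled cells, against 2110.1 and 705 RPKM in WT, and Il17a, the defining cytokine, had 79.7 and 32.6 RPKM at 39.5 and 37 °C in KO-labelled cells, against 686 and 134 RPKM in WT. The part of these differences in the results was not tested, and fewer cells in cycle cannot be told apart from less RNA per cell in bulk RNA.

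The replication genes stood lowest in the KO-labelled culture at 37 °C. The KO-labelled library at 37 °C was the lowest of the 4 for 42 of the 46 genes (91.3%), against 28.7% of all 13715 rows tested, and it was the highest for 0. The highest library was KO-labelled at 39.5 °C for 15 genes, WT at 39.5 °C for 24 and WT at 37 °C for 7. Summed over the 46 genes, the level was 1630 RPKM in KO-labelled cells at 39.5 °C and 1289 RPKM at 37 °C, against 1707 and 1682 RPKM in WT at 39.5 and 37 °C. As a share of all recovered reads this was 0.647% and 0.489% in KO-labelled cells and 0.718% and 0.674% in WT. The MCM ring made up 723 of the 1682 RPKM in WT at 37 °C, so the sums weigh it heavily. The median of the 46 genes was 19.5 and 15.4 RPKM at 39.5 and 37 °C in KO-labelled cells, against 19.9 and 16.98 RPKM in WT. By median, WT at 37 °C lay between the KO-labelled library at 37 °C and the heated libraries. Where exons overlap those of other genes, reads could be split by the counting: beside the genes named with an overlap, this held for 17.4% of the exon bases of Ccne2, 15.1% of Rfc2, 12.7% of Rfc4, 10.8% of Orc1 and 10.7% of Rfc5. Smaller shares overlapped in Slbp (7.80%), Orc6 (6.93%), Cdc45 (5.96%), Lig1 (5.79%), Tk1 (1.60%), Rpa1 (0.79%) and Pole (0.70%). With 1 library per group, no ratio between a pair of libraries has a replicate check. The 95% intervals given in parentheses cover counting error only.

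**Figure D1:**
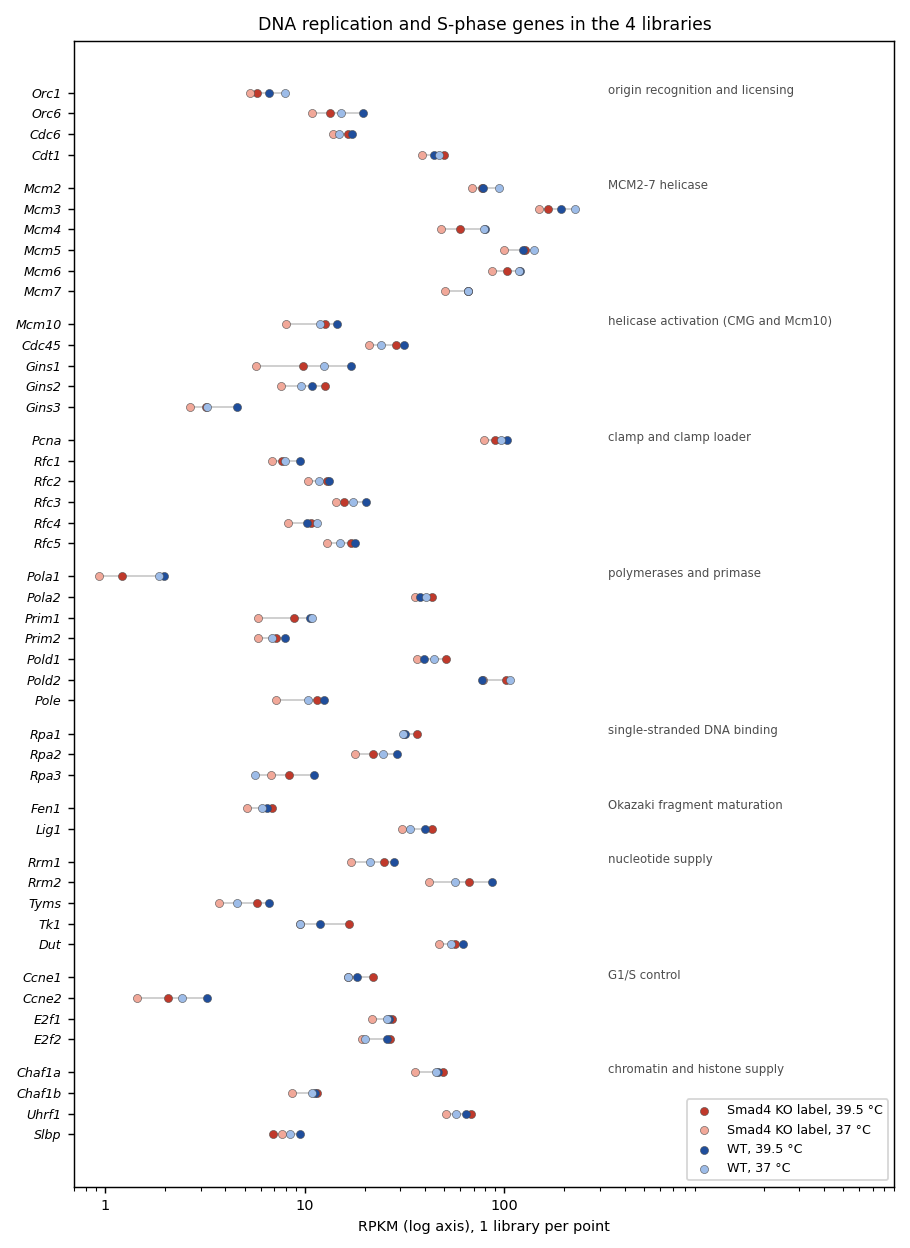
Level of each of the 46 genes in RPKM (log axis), with 1 point per library and the genes grouped by role. The pale red points (KO-labelled, 37 °C) lie at the left end for 42 of the 46 genes, and Mcm3 is the most abundant gene in every library.

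Of the 4 licensing factors, 3 had a heat ratio with an interval above 1 in KO-labelled cells, and in WT 2 were above 1 and 2 below. Of all rows, 22.7% were above 1 in KO-labelled cells, and in WT 22.4% were above and 28.1% below. Cdt1, which brings the MCM ring to origins, had 49.7 and 38.7 RPKM at 39.5 and 37 °C in KO-labelled cells, against 44.3 and 46.9 RPKM in WT. Its ratio of 39.5 to 37 °C was 1.28 (1.21 to 1.36) in KO-labelled cells and 0.944 (0.895 to 0.997) in WT. The heated culture was higher in one genotype and lower in the other. Orc1, the largest subunit of the origin recognition complex, had 5.78 and 5.31 RPKM at 39.5 and 37 °C in KO-labelled cells, against 6.61 and 7.94 RPKM in WT, and the WT library at 37 °C was the highest. Its heat ratio in KO-labelled cells, 1.09 (0.934 to 1.27), had an interval that spans 1. Orc6, the smallest subunit, had 13.4 and 10.8 RPKM at 39.5 and 37 °C in KO-labelled cells, against 19.5 and 15.1 RPKM in WT. Both WT libraries of Orc6 lay above both KO-labelled ones, and the heated library was the higher in each genotype. Cdc6, the loader ATPase, had 16.4 and 13.9 RPKM at 39.5 and 37 °C in KO-labelled cells, against 17.1 and 14.9 RPKM in WT, with label ratios of 0.957 (0.894 to 1.03) at 39.5 °C and 0.932 (0.864 to 1.01) at 37 °C, both with an interval that spans 1.

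The 6 subunits of the MCM ring were the most abundant group and were all lower with the KO label at 37 °C. Their sum was 597 and 501 RPKM at 39.5 and 37 °C in KO-labelled cells, against 660.4 and 723 RPKM at 39.5 and 37 °C in WT. Mcm3 had 164 and 148 RPKM at 39.5 and 37 °C in KO-labelled cells, against 193 and 226 RPKM in WT, a ratio of 39.5 to 37 °C of 1.11 (1.08 to 1.14) in KO-labelled cells and 0.851 (0.832 to 0.871) in WT. Heat therefore went with a higher Mcm3 level in one genotype and a lower level in the other. Mcm2 had 77.01 and 68.6 RPKM at 39.5 and 37 °C in KO-labelled cells, against 77.9 and 94.2 RPKM in WT. Mcm5 had 127 and 99.1 RPKM at 39.5 and 37 °C in KO-labelled cells, against 124 and 140.0 RPKM in WT. Both followed Mcm3, with WT ratios of 0.827 (0.806 to 0.849) for Mcm2 and 0.886 (0.861 to 0.911) for Mcm5. The other 3 subunits differed in WT by less than counting error: the ratio was 1.01 (0.976 to 1.05) for Mcm4, 1.02 (0.992 to 1.05) for Mcm6 and 1.003 (0.966 to 1.04) for Mcm7, each with an interval that spans 1. In KO-labelled cells all 6 were higher at 39.5 °C, with ratios between 1.11 (Mcm3) and 1.298 (Mcm7) and every interval above 1. Of all rows, 22.7% had such an interval. With the KO label all 6 were lower at 37 °C, with ratios to WT between 0.610 (Mcm4) and 0.774 (Mcm7). Of all rows, 48.9% were above WT there. Mcm4 had 60.2 and 48.1 RPKM at 39.5 and 37 °C in KO-labelled cells, against 79.96 and 78.9 RPKM in WT, the lowest label ratio of the ring at both temperatures. Mcm6 had 103 and 86.2 RPKM at 39.5 and 37 °C in KO-labelled cells, against 120.3 and 118 RPKM in WT. Mcm7 had 65.6 and 50.5 RPKM at 39.5 and 37 °C in KO-labelled cells, against 65.6 and 65.3 RPKM in WT, with a label ratio of 1.001 (0.964 to 1.04) at 39.5 °C, so its KO-labelled library at 37 °C was low and the other 3 were level. About 12.6% of the exon bases of Mcm7 overlap other annotated genes, Mir25 and Mir93 among them.

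The factors that turn the loaded ring into a moving helicase had a higher level at 39.5 °C in both genotypes. The interval lay above 1 for 4 of 5 in KO-labelled cells and 5 of 5 in WT, against 22.7% and 22.4% of all rows. Gins1, a GINS subunit, had 9.75 and 5.68 RPKM at 39.5 and 37 °C in KO-labelled cells, against 16.98 and 12.5 RPKM in WT. Each KO-labelled library of Gins1 was below each WT library, with label ratios of 0.574 (0.493 to 0.667) at 39.5 °C and 0.456 (0.375 to 0.554) at 37 °C. Heat ratios of Gins1 were 1.71 (1.401 to 2.105) in KO-labelled cells and 1.36 (1.19 to 1.57) in WT. Gins2 had 12.7 and 7.57 RPKM at 39.5 and 37 °C in KO-labelled cells, against 10.8 and 9.55 RPKM in WT, but 67.3% of its exon bases lie within exons of Gse1, so its reads are uncertain by gene. Gins3 had the fewest reads of the complex, at 3.21 and 2.66 RPKM at 39.5 and 37 °C in KO-labelled cells, against 4.59 and 3.24 RPKM in WT, and its heat ratio in KO-labelled cells, 1.21 (0.950 to 1.54), had an interval that spans 1. Cdc45, the third part of the helicase, had 28.7 and 20.8 RPKM at 39.5 and 37 °C in KO-labelled cells, against 31.3 and 24.1 RPKM in WT, with heat ratios of 1.38 (1.26 to 1.51) and 1.299 (1.196 to 1.41) in KO-labelled cells and WT. Mcm10, a firing factor outside the ring, had 12.6 and 8.004 RPKM at 39.5 and 37 °C in KO-labelled cells, against 14.6 and 11.97 RPKM in WT. The KO-labelled library at 37 °C stood apart below the other 3 for Mcm10.

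The clamp gene Pcna had 89.8 and 79.3 RPKM at 39.5 and 37 °C in KO-labelled cells, against 103 and 95.8 RPKM in WT, small differences with the same order in both genotypes. The heat ratio of Pcna was 1.13 (1.08 to 1.19) in KO-labelled cells and 1.07 (1.03 to 1.12) in WT. Of the 5 clamp loader genes, Rfc3 had 15.7 and 14.4 RPKM at 39.5 and 37 °C in KO-labelled cells, against 20.3 and 17.5 RPKM in WT. Its KO-labelled libraries were both below its WT ones. Rfc5 had 17.1 and 12.8 RPKM at 39.5 and 37 °C in KO-labelled cells, against 17.9 and 14.9 RPKM in WT, and its heated libraries were the higher ones. Rfc1, the large subunit, had 7.66 and 6.86 RPKM at 39.5 and 37 °C in KO-labelled cells, against 9.49 and 7.95 RPKM in WT. Rfc2 had 12.9 and 10.3 RPKM at 39.5 and 37 °C in KO-labelled cells, against 13.2 and 11.7 RPKM in WT. Rfc4 had 10.8 and 8.24 RPKM at 39.5 and 37 °C in KO-labelled cells, against 10.3 and 11.5 RPKM in WT. All 5 were below WT at 37 °C with the label, with ratios between 0.715 (Rfc4) and 0.881 (Rfc2). Of all rows, 48.9% were above WT there. Rfc4 was the 1 loader gene whose heat ratio lay on opposite sides of 1, at 1.31 (1.095 to 1.56) in KO-labelled cells and 0.894 (0.762 to 1.05) in WT, the second with an interval that spans 1.

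The 3 highest differences between the temperature responses, KO-labelled over WT, were in polymerase and primase genes. Pold2, an accessory subunit of polymerase δ, had 101 and 78.3 RPKM at 39.5 and 37 °C in KO-labelled cells, against 77.6 and 106 RPKM in WT. The heat ratio of Pold2 was 1.29 (1.23 to 1.36) in KO-labelled cells and 0.731 (0.696 to 0.768) in WT, so the WT library at 39.5 °C and the KO-labelled library at 37 °C shared the low level. Its catalytic partner Pold1 had 50.7 and 36.4 RPKM at 39.5 and 37 °C in KO-labelled cells, against 39.6 and 44.4 RPKM in WT, with ratios of 1.39 (1.33 to 1.46) and 0.891 (0.852 to 0.932) in KO-labelled cells and WT. Pole, the catalytic subunit of polymerase ε, had 11.5 and 7.14 RPKM at 39.5 and 37 °C in KO-labelled cells, against 12.5 and 10.3 RPKM in WT, higher with heat in each genotype, at ratios of 1.62 (1.51 to 1.73) in KO-labelled cells and 1.21 (1.14 to 1.28) in WT. Pola2, a subunit of polymerase α, had 43.5 and 35.6 RPKM at 39.5 and 37 °C in KO-labelled cells, against 37.8 and 40.5 RPKM in WT. Its catalytic partner Pola1 was the least abundant of the 46 genes, at 1.21 and 0.926 RPKM at 39.5 and 37 °C in KO-labelled cells, against 1.97 and 1.87 RPKM in WT, and its label ratio was 0.614 (0.512 to 0.734) at 39.5 °C and 0.496 (0.404 to 0.607) at 37 °C. The primase gene Prim1 had 8.805 and 5.85 RPKM at 39.5 and 37 °C in KO-labelled cells, against 10.7 and 10.9 RPKM in WT, with a label ratio of 0.538 (0.475 to 0.608) at 37 °C. Prim2, the other primase subunit, had 7.199 and 5.84 RPKM at 39.5 and 37 °C in KO-labelled cells, against 7.95 and 6.81 RPKM in WT.

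All 3 single-strand binding genes were above 0 with heat in each genotype, against 48.7% of all rows in KO-labelled cells and 46.5% in WT. They differed in their label ratios and in the size of the WT heat ratio. Rpa1 had 36.5 and 31.3 RPKM at 39.5 and 37 °C in KO-labelled cells, against 31.7 and 30.9 RPKM in WT, and at 37 °C the label ratio was 1.01 (0.965 to 1.07). Rpa2 had 21.99 and 17.8 RPKM at 39.5 and 37 °C in KO-labelled cells, against 29.1 and 24.8 RPKM in WT, lower with the label at both temperatures. Rpa3, the smallest subunit, had 8.37 and 6.74 RPKM at 39.5 and 37 °C in KO-labelled cells, against 11.1 and 5.65 RPKM in WT. The heat ratio of Rpa3 was 1.24 (0.987 to 1.57) in KO-labelled cells and 1.97 (1.57 to 2.47) in WT, the largest WT ratio among the 46 genes, from 117 reads in the WT library at 37 °C. Of the enzymes that finish the lagging strand, the ligase gene Lig1 had 43.6 and 30.8 RPKM at 39.5 and 37 °C in KO-labelled cells, against 39.9 and 33.8 RPKM in WT. The flap nuclease gene Fen1 had 6.86 and 5.103 RPKM at 39.5 and 37 °C in KO-labelled cells, against 6.44 and 6.097 RPKM in WT, with 84.2% of its exon bases inside other annotated genes, Tmem258 among them.

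Nucleotide supply genes were higher at 39.5 °C in both genotypes, 5 of 5 in each, against 48.7% of all rows in KO-labelled cells and 46.5% in WT. Rrm2, the small subunit of ribonucleotide reductase and the one whose level tracks S phase, had 66.8 and 41.7 RPKM at 39.5 and 37 °C in KO-labelled cells, against 87.02 and 56.3 RPKM in WT. Its heat ratio was 1.601 (1.52 to 1.69) in KO-labelled cells and 1.55 (1.47 to 1.62) in WT, so both genotypes differed by about the same factor. The large subunit gene Rrm1 had 24.8 and 17.1 RPKM at 39.5 and 37 °C in KO-labelled cells, against 28.04 and 21.1 RPKM in WT. Tyms, the thymidylate synthase gene, had 5.78 and 3.72 RPKM at 39.5 and 37 °C in KO-labelled cells, against 6.62 and 4.59 RPKM in WT. The dUTPase gene Dut had 56.7 and 47.2 RPKM at 39.5 and 37 °C in KO-labelled cells, against 61.8 and 53.8 RPKM in WT, and the heated library of Rrm1, Tyms and Dut was the higher in each genotype. Tk1, the thymidine salvage kinase, had 16.7 and 9.42 RPKM at 39.5 and 37 °C in KO-labelled cells, against 11.9 and 9.45 RPKM in WT. At 37 °C the label ratio of Tk1 was 0.997 (0.907 to 1.096), an interval that spans 1, while at 39.5 °C the ratio was 1.396 (1.29 to 1.51), the highest of the 46.

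G1/S control genes had a heat ratio with an interval above 1 for 4 of 4 in KO-labelled cells and 3 of 4 in WT. Of all rows this held for 22.7% and 22.4%. E2f1 had 27.3 and 21.6 RPKM at 39.5 and 37 °C in KO-labelled cells, against 26.3 and 25.8 RPKM in WT. The WT heat ratio of E2f1, 1.02 (0.952 to 1.098), had an interval that spans 1. E2f2 had 26.6 and 19.3 RPKM at 39.5 and 37 °C in KO-labelled cells, against 25.8 and 20.03 RPKM in WT. Both are activator E2Fs and themselves E2F targets. Of the cyclin E genes, Ccne1 had 22.04 and 16.4 RPKM at 39.5 and 37 °C in KO-labelled cells, against 18.2 and 16.4 RPKM in WT. Ccne2 had 2.07 and 1.44 RPKM at 39.5 and 37 °C in KO-labelled cells, against 3.23 and 2.43 RPKM in WT. The label ratio of Ccne1 at 37 °C was 0.999 (0.904 to 1.104). Ccne2 was lower with the label at both temperatures, at 0.640 (0.512 to 0.797) at 39.5 °C and 0.593 (0.452 to 0.775) at 37 °C. Among the chromatin genes, Uhrf1, which guides maintenance methylation, had 67.9 and 50.9 RPKM at 39.5 and 37 °C in KO-labelled cells, against 64.4 and 57.1 RPKM in WT. The histone chaperone gene Chaf1b had 11.5 and 8.59 RPKM at 39.5 and 37 °C in KO-labelled cells, against 11.3 and 10.8 RPKM in WT, with the KO-labelled library at 37 °C low and the other 3 close together. Chaf1a had 49.3 and 35.6 RPKM at 39.5 and 37 °C in KO-labelled cells, against 46.4 and 45.2 RPKM in WT, and its annotated exons overlap those of Ubxn6 over 52.5% of their bases. The values of Chaf1a rest on a shorter length, 3308 bases, so that share is of another gene model. Slbp, whose protein binds the stem-loop of histone messenger RNAs, had 6.94 and 7.698 RPKM at 39.5 and 37 °C in KO-labelled cells, against 9.42 and 8.42 RPKM in WT. It was the 1 gene of the 46 that was lower at 39.5 °C in KO-labelled cells, at a ratio of 0.901 (0.816 to 0.995).

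Over the whole group, heat went with higher levels in KO-labelled cells for nearly every gene and in WT for most of them. Log2 ratios were taken after adding 1 to each RPKM value, which shrinks those of low genes, and 45 of the 46 genes (97.8%) were above 0 in KO-labelled cells, against 48.7% of all 13715 rows. The median log2 ratio of the 46 was 0.35, with an SD of 0.18 across genes, against −0.01 for all rows. In WT 36 of the 46 (78.3%) were above 0, against 46.5% of all rows, with a median of 0.16 (SD 0.24) against −0.02. No gene of the 46 reached 2-fold in either temperature pair, where 1.66% of all rows did in KO-labelled cells and 1.98% in WT. The counting interval of the ratio lay above 1 for 41 genes and below 1 for 1 gene in KO-labelled cells, against 22.7% and 24.8% of all rows. In WT it lay above 1 for 27 genes and below 1 for 8, against 22.4% and 28.1% of all rows. The 8 below 1 in WT were Mcm2, Mcm3, Mcm5, Pold1, Pold2, Pola2, Orc1 and Cdt1. By role, the WT median was −0.08 for the MCM ring and −0.03 for the polymerases and primase, against 0.39 for nucleotide supply and 0.36 for helicase activation. The KO-labelled medians of these groups were 0.28 for the ring, 0.37 for the polymerases, 0.52 for nucleotide supply and 0.59 for helicase activation. Across the 46 genes the temperature changes of the genotypes, which share no library, correlated with r = 0.31 (Pearson) and rho = 0.34 (Spearman), a description across genes and not across replicates.

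Set against WT at the same temperature, the KO-labelled cells were lower in these genes, more so at 37 °C. At 37 °C 2 of the 46 genes (4.35%) were above 0, against 48.9% of all rows, and the median log2 ratio was −0.28 against −0.01. The 2 were Rpa1 and Rpa3. The counting interval lay below 1 for 37 genes and above 1 for 0, against 32.1% and 30.9% of all rows. On the log2(RPKM + 1) scale Gins1 alone was 2-fold lower, on a background of 1.14% of rows lower and 5.84% either way. As a plain ratio of levels Pola1, at 0.496 (0.404 to 0.607), was past 2-fold too. At 39.5 °C 18 of the 46 (39.1%) were above 0, against 50.3% of all rows, with a median of −0.11 against 0.00. The interval lay below 1 for 23 genes and above 1 for 11, against 30.1% and 31.5% of all rows, and 0 genes passed 2-fold on a background of 3.35%. Genes lower with the label at both temperatures numbered 27, and 17 were lower at 37 °C and higher at 39.5 °C. The share of all rows in each of these joint patterns was not computed, so these counts are a description only. The 17 included Pold1, Pold2, Pola2, Cdt1, Gins2, Lig1 and Chaf1a.

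**Figure D2:**
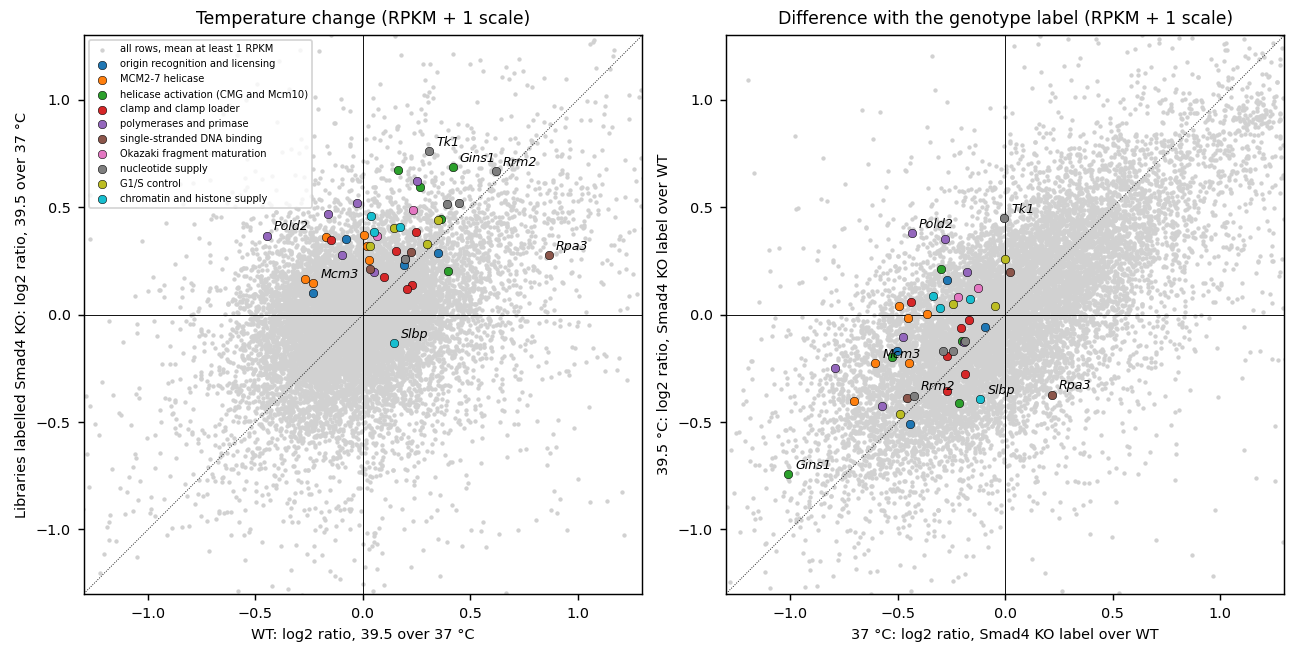
Left, the log2 ratio of 39.5 over 37 °C in KO-labelled cells (vertical) against WT (horizontal); right, the log2 ratio of the KO label over WT at 39.5 °C (vertical) against 37 °C (horizontal), with the 46 genes coloured by role over all rows in grey. Of the 46 genes, 40 lie above the dotted line of equal change in the left panel. The same 40 must do so in the right panel, since both panels rearrange the same libraries. Grey points beyond 1.3 are outside the axes.

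The difference between the temperature responses was positive for most of the 46 genes. The KO-labelled change minus the WT change was above 0 for 40 of the 46 (87.0%), against 49.6% of all rows, with a median of 0.25 on the log2(RPKM + 1) scale against −0.0028 for all rows. Its counting interval lay above 0 for 27 genes and below 0 for 2, against 21.9% and 20.4% of all rows. Given as log2 ratios of the levels themselves, with that interval, the 2 on the other side were Rpa3, at −0.66 (−1.12 to −0.21), and Slbp, at −0.31 (−0.50 to −0.12). The differences ran up to 0.82 (0.72 to 0.93) for Pold2, 0.65 (0.55 to 0.74) for Pold1 and 0.62 (0.39 to 0.85) for Prim1. All 6 MCM subunits had a positive difference, from 0.23 (0.17 to 0.29) for Mcm6 to 0.54 (0.48 to 0.60) for Mcm5. Rrm2, at 0.05 (−0.05 to 0.16), and E2f2, at 0.09 (−0.03 to 0.22), had intervals that span 0. With 1 library per group this difference has no test.

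Effects shared by both temperatures or both genotypes were tested with an additive limma fit of all 4 libraries, with Benjamini-Hochberg adjustment over 13715 rows and 1 residual degree of freedom. With the KO label, 1 of the 46 genes was lower at an adjusted p under 0.05 and 0 were higher, on a background of 4.7% of rows lower and 8.57% higher. That gene was Gins1 (log2 −0.88 ± 0.14 SE, adjusted p = 0.0215), lower in 2 of 2 temperature pairs. Next came Mcm4 (log2 −0.55 ± 0.13 SE, adjusted p = 0.0518), Orc6 (log2 −0.48 ± 0.12 SE, adjusted p = 0.0606) and Rpa2 (log2 −0.42 ± 0.12 SE, adjusted p = 0.0763), which did not pass. At an unadjusted p under 0.05, 12 of the 46 (26.1%) were lower and 0 higher, against 15.6% of all rows lower and 19% higher. For temperature 0 of the 46 passed in limma, where 0.0219% of all rows did. At an unadjusted p under 0.05, 14 of the 46 (30.4%) were higher and 0 lower, against 7.17% of all rows higher and 6.79% lower. Rrm2 had the largest shared temperature effect (log2 0.64 ± 0.12 SE, adjusted p = 0.131), and it was the 1 gene of the 46 that passed with limma-voom on the recovered reads (adjusted p = 0.0442) and with a minimum mean of 5 RPKM (adjusted p = 0.0349). For the label, other genes had an adjusted p under 0.05 in some alternatives. With the minimum mean of 5 RPKM these were Mcm4 (0.0213), Orc6 (0.0276), Rpa2 (0.0438) and Prim1 (0.0443). With limma-voom they were Pola1 (0.0146), Mcm4 (0.0272), Orc6 (0.0334), Ccne2 (0.0354) and Rpa2 (0.0432). Mcm4 also passed with a pseudocount of 0.1 (0.0488) and with upper quartile scaling (0.0346), and Orc6 with upper quartile scaling (0.0470). The residual of this fit is the difference between the temperature responses. Empirical Bayes pools it with a trend over all rows, with 4.47 prior degrees of freedom (median) beside the 1 residual degree. The error of a gene is therefore largely borrowed from other rows. Pold2 still carried a wide one in limma (log2 −0.04 ± 0.21 SE, adjusted p = 0.957), where the median SE of the 46 was 0.14. The Gins1 call was lost with no minimum mean (adjusted p = 0.0709, range 0.00260 to 0.0709 over its alternatives).

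**Figure D3:**
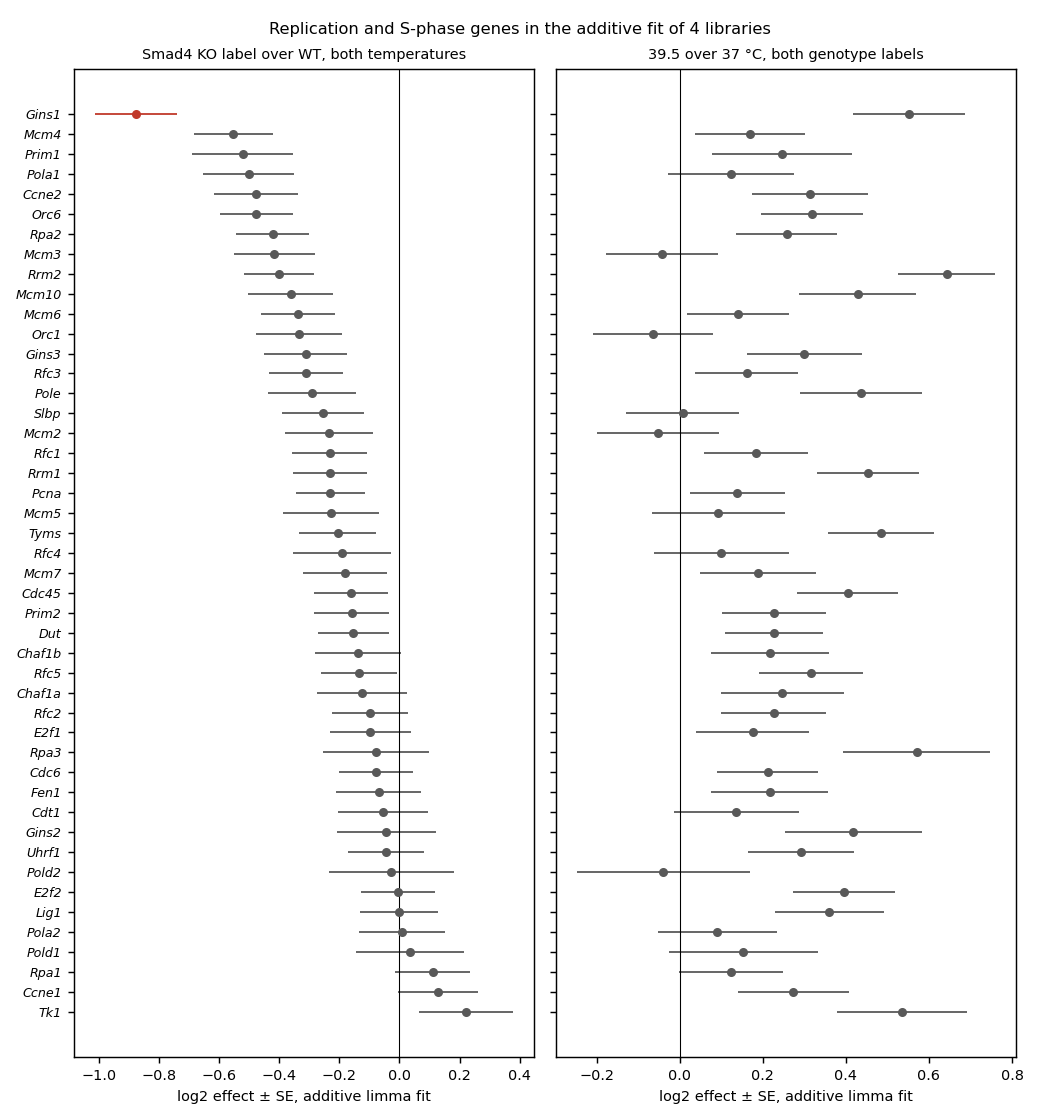
Effect of the KO label over WT (left) and of 39.5 over 37 °C (right) for each of the 46 genes in the additive fit, as log2 effect with bars of 1 SE, ordered by the label effect. Gins1, in red, is the gene with an adjusted p under 0.05; 41 of the 46 label effects lie below 0 and 42 of the 46 temperature effects above 0.

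The other genes of replication followed the same layout in part. Of 50 further replication factors, 49 were tested: 41 were above 0 with heat in KO-labelled cells (median 0.24) and 33 in WT (median 0.06), against 48.7% and 46.5% of all rows. With the label 9 of the 49 were above 0 at 37 °C (median −0.34) and 16 at 39.5 °C (median −0.11), against 48.9% and 50.3% of all rows. In the additive limma fit 8 of the 49 were lower and 1 was higher, against 4.7% and 8.57% of all rows. The higher one was Pold4, the smallest polymerase δ subunit, at 90.2 and 106 RPKM at 39.5 and 37 °C in KO-labelled cells, against 45.4 and 45.7 RPKM in WT (log2 1.09 ± 0.13 SE, adjusted p = 0.0148). Pole3, a histone-fold subunit of polymerase ε, had 15.2 and 14.8 RPKM at 39.5 and 37 °C in KO-labelled cells, against 32.6 and 26.4 RPKM in WT (log2 −0.92 ± 0.13 SE, adjusted p = 0.0192). The origin recognition gene Orc2 had 6.56 and 6.09 RPKM at 39.5 and 37 °C in KO-labelled cells, against 11.9 and 11.6 RPKM in WT (log2 −0.80 ± 0.12 SE, adjusted p = 0.0215). The topoisomerase gene Top1 had 5.26 and 4.6002 RPKM at 39.5 and 37 °C in KO-labelled cells, against 9.403 and 8.35 RPKM in WT. Rnaseh2b, a subunit of the RNase that clears RNA from DNA, had 2.44 and 2.12 RPKM at 39.5 and 37 °C in KO-labelled cells, against 4.596 and 3.895 RPKM in WT. Both were lower with the label (adjusted p = 0.0257 and 0.0347). For temperature 0 of the 49 passed, with 8 higher and 1 lower at an unadjusted p under 0.05, against 7.17% and 6.79% of all rows. Top2a, another topoisomerase gene, had 25.2 and 18.3 RPKM at 39.5 and 37 °C in KO-labelled cells, against 34.9 and 18.5 RPKM in WT. The S and G2 cyclin gene Ccna2 had 31.4 and 20.6 RPKM at 39.5 and 37 °C in KO-labelled cells, against 39.9 and 23.96 RPKM in WT.

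Fork repair and checkpoint genes, 23 tested of 26, were above 0 with heat for 21 in KO-labelled cells and 18 in WT, with medians of 0.22 and 0.20, against 48.7% and 46.5% of all rows above 0. With the label their medians were −0.09 at 39.5 °C and −0.20 at 37 °C. With the label 2 of the 23 were lower and 0 higher, against 4.7% and 8.57% of all rows. They were the checkpoint kinase gene Chek1, at 2.45 and 2.04 RPKM at 39.5 and 37 °C in KO-labelled cells, against 4.59 and 3.83 RPKM in WT (log2 −0.68 ± 0.13 SE, adjusted p = 0.0341), and the exonuclease gene Exo1, at 4.87 and 2.82 RPKM at 39.5 and 37 °C in KO-labelled cells, against 7.15 and 5.08 RPKM in WT (log2 −0.57 ± 0.13 SE, adjusted p = 0.0497).

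The E2F and RB list, 26 tested of 30, had 2 genes lower and 2 higher with the label, shares near the 4.7% and 8.57% of all rows. Its median heat ratio (log2) was 0.10 in KO-labelled cells and 0.30 in WT, and its median label ratio was −0.08 at 39.5 °C and −0.16 at 37 °C. Ccnd2, the cyclin D2 gene, was lower, at 66.8 and 72.99 RPKM at 39.5 and 37 °C in KO-labelled cells, against 121 and 107 RPKM in WT (log2 −0.70 ± 0.13 SE, adjusted p = 0.0315), and so was E2f5, a repressor E2F, at 4.51 and 4.39 RPKM at 39.5 and 37 °C in KO-labelled cells, against 7.15 and 6.99 RPKM in WT (log2 −0.57 ± 0.13 SE, adjusted p = 0.0446). Both higher genes encode inhibitors of cyclin-dependent kinases. Cdkn2d, the p19 inhibitor gene, had 46.6 and 56.04 RPKM at 39.5 and 37 °C in KO-labelled cells, against 29.6 and 20.995 RPKM in WT (log2 1.01 ± 0.20 SE, adjusted p = 0.0341), and Cdkn1b, the p27 gene, had 12.3 and 13.7 RPKM at 39.5 and 37 °C in KO-labelled cells, against 8.499 and 8.59 RPKM in WT (log2 0.55 ± 0.13 SE, adjusted p = 0.0473). Cdkn1a, the gene of the inhibitor p21, which also binds PCNA, had 130.3 and 137 RPKM at 39.5 and 37 °C in KO-labelled cells, against 178 and 22.3 RPKM in WT. The WT library at 37 °C was low for Cdkn1a and the other 3 were high, and neither effect passed (adjusted p = 0.299 for the label and 0.413 for temperature). Cdkn2c, the p18 gene, had 8.59 and 4.47 RPKM at 39.5 and 37 °C in KO-labelled cells, against 12.9 and 6.56 RPKM in WT. Myc, which drives growth and G1 entry, had 321 and 379 RPKM at 39.5 and 37 °C in KO-labelled cells, against 295 and 483 RPKM in WT.

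Mitosis genes, listed for a later phase of the cycle, were laid out differently from the replication genes. All 24 tested of 25 were above 0 with heat in both genotypes, against 48.7% of all rows in KO-labelled cells and 46.5% in WT. Their medians were 0.47 in KO-labelled cells and 0.84 in WT, so here the WT change was the larger. The KO-labelled change minus the WT change was above 0 for 1 of the 24 (median −0.33), against 40 of the 46 replication genes (median 0.25) and 49.6% of all rows. With the label at 37 °C 16 of the 24 were above 0 (median 0.14), against 2 of the 46 replication genes (median −0.28) and 48.9% of all rows. At 39.5 °C it was 7 of 24 (median −0.24) against 18 of 46 (median −0.11) and 50.3% of all rows. The mitotic kinesin gene Kif20a had 18.4 and 10.9 RPKM at 39.5 and 37 °C in KO-labelled cells, against 20.8 and 9.52 RPKM in WT. Nusap1, a spindle protein gene, had 7.65 and 5.098 RPKM at 39.5 and 37 °C in KO-labelled cells, against 12.5 and 4.52 RPKM in WT. Mki67, the proliferation marker gene, had 19.1 and 13.8 RPKM at 39.5 and 37 °C in KO-labelled cells, against 29.8 and 15.7 RPKM in WT. In limma 0 of the 24 passed for either effect. Of all rows, 0.0219% passed for temperature, and 8.57% were higher and 4.7% lower for the label. At an unadjusted p under 0.05 all 24 were higher for temperature, against 7.17% of all rows. For the label at that unadjusted threshold, 3 were higher and 2 lower, against 19% and 15.6% of all rows. The gap between the lists was not tested.

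**Figure D4:**
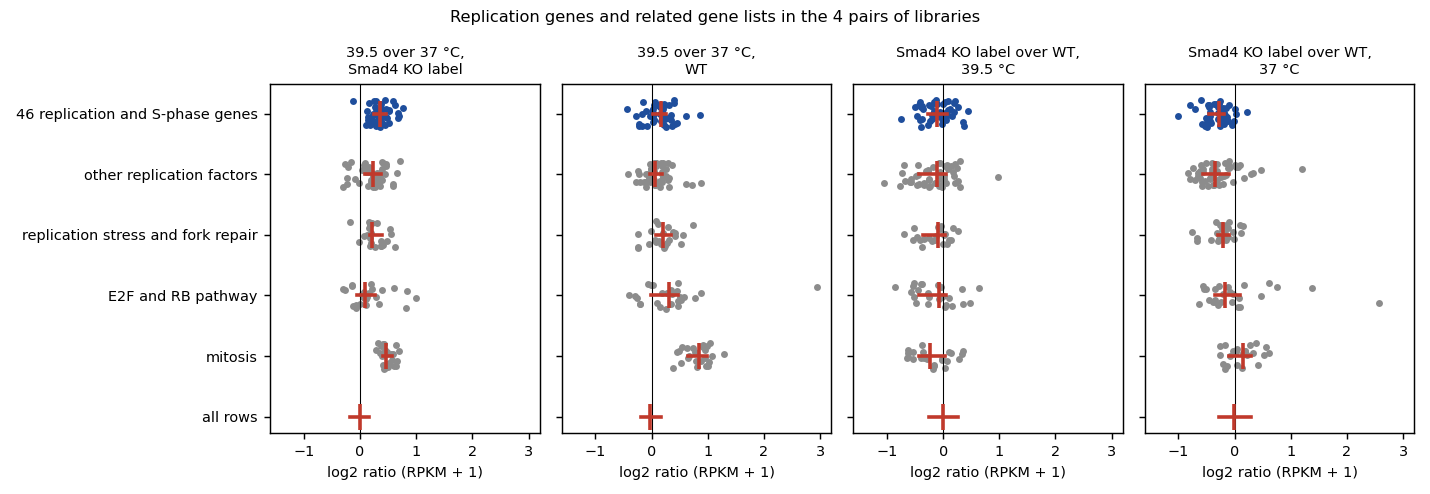
Log2 ratio of each gene (points) in the 4 pairs of libraries for the 46 replication and S-phase genes (blue) and 4 related lists (grey), with the median (red tick) and the middle range from the lower to the upper quartile (red bar), and for all 13715 rows without points. The replication genes sit left of 0 with the KO label at 37 °C (median −0.28), where the mitosis genes have a median of 0.14.

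Responses were also set side by side by promoter letters, without a test. The 14 genes with an E2F match had a median log2 heat ratio of 0.30 in KO-labelled cells and 0.04 in WT, and the 25 with a window and no match had 0.37 and 0.15. With the label at 37 °C the medians were −0.28 with a match and −0.24 without, and at 39.5 °C they were −0.03 and −0.12. The 14 include 4 of the 6 MCM subunits, those printed at the start, so gene role and promoter letters overlap. Of the other subunits, Mcm2 had a window without a match and Mcm4 had no window.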

How the data were processed

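Expression was measured by RNA-seq in 4 libraries, 1 per group, grouped by the sample titles. The authors deposited 1 table of RPKM values per library. The submitters' processing notes name edgeR, Subread, featureCounts, Bowtie2 and Trim Galore 0.4.4, and build mm10, without order or settings. The sources used here do not give annotation release or strandedness, so reads of overlapping genes are uncertain.

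RPKM values were multiplied by exon length (GENCODE vM21) and a fitted library size to recover whole reads, within 0.01 reads for 12053 of 13144 matched rows (91.7%). Other rows took the shortest length giving whole reads, Cdc45, Rfc4, Chaf1a, Chaf1b and Pola2 among them, whose reads could be off by a whole factor. Intervals are exact Clopper-Pearson (95%), conditional on a pair's summed reads; intervals of a difference of changes use the normal approximation. Both cover counting error only, since reads were counted without molecular identifiers and PCR copies are not separate molecules. The fitted library sizes were 0.955 to 1.06 times the recovered reads.

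Log2(RPKM + 1) was compared for the 13715 rows whose mean reached 1 RPKM, and tested with limma 3.58.1 in R 4.3.3 (genotype + temperature, trended empirical Bayes, Benjamini-Hochberg). The code was run on simulated data with genotype changes and no difference between the temperature responses. That run cannot check the calls where the temperature responses differ. Nothing in the labels says that libraries came from separate animals, so p-values do not measure a spread between animals. They rest on the difference between the temperature responses, pooled over all rows, and not on a spread between like libraries. Members, lists and tests were chosen with earlier results of these data known. The rule asked for values in all libraries for members that pass and for the most abundant and most and least heat-changed member of each role; they are given for all 46. Of each other list, the genes named had the largest label effects that passed or the largest temperature effects; Smad4, Cdkn1a, Mki67, Myc and Il17a were named whatever their values, and cell type markers were chosen after theirs were seen. A result that this rule would name is not reported here. Alternatives were the pseudocount, the minimum mean, the scaling, the variance trend and limma-voom.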

Additional observations from a re-analysis of the deposited data

Results flagged for a closer look

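Genes higher at 39.5 °C in KO-labelled cells and lower in WT, with each counting interval clear of 1, numbered 7 of the 46. In the reverse direction Slbp also had both intervals clear of 1. Its heat ratio was 0.901 (0.816 to 0.995) in KO-labelled cells and 1.12 (1.02 to 1.22) in WT. The share of all rows with either joint pattern was not computed. Taken singly, the interval lay above 1 for 22.7% of all rows in KO-labelled cells and below 1 for 28.1% in WT. For the reverse direction it lay below 1 for 24.8% in KO-labelled cells and above 1 for 22.4% in WT. The KO-labelled log2 change minus the WT log2 change was 0.82 for Pold2, 0.65 for Pold1, 0.54 for Mcm5, 0.44 for Mcm2, 0.44 for Cdt1, 0.39 for Pola2 and 0.38 for Mcm3. For Slbp it was −0.31. The 7 were picked for being higher at 39.5 °C in KO-labelled cells and lower in WT, so their shared direction is not a result. With 1 library per group the difference was not tested.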

How the results depend on the processing

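Median log2 ratios of the 46 genes kept their direction under every alternative run for the 4 pairs and for the difference between them. With equal total reads, 11 genes in place of 18 were above 0 with the KO label at 39.5 °C and 1 in place of 2 at 37 °C, while that scaling moved the median of all rows to −0.07 and −0.08. The count of the 46 lower with the label, 1 as reported, was 2 with a pseudocount of 0.1, 3 with upper quartile scaling, 5 with a minimum mean of 5 RPKM (43 genes tested), 6 with limma-voom and 0 with no minimum mean. For temperature 1 gene was higher with a minimum mean of 5 RPKM and 1 with limma-voom, Rrm2 in both. Rows passing for the label, 1820 as reported, were 2923 with limma-voom and 0 with no minimum mean. Rows passing for temperature, 3 as reported, were 30 with a pseudocount of 0.1, 290 with a minimum mean of 5 RPKM, 87 with upper quartile scaling, 352 with limma-voom, 0 without a variance trend and 0 with no minimum mean. Effects near 0 that changed sign were Pola2 for the label (−0.0086 with upper quartile scaling), E2f2 and Lig1 for the label (0.0033 and 0.0062 with median of ratios scaling) and Slbp for temperature (−0.0047 with median of ratios scaling). The cause was not tested. No paired analysis was possible because each group has 1 library and the labels carry no shared replicate number, and leaving out a library would leave the additive fit with no residual degree of freedom.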
